A study of Mus musculus with 7 samples.

Results

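Nanog, Tfcp2l1, Tbx3, Zfp42, Prdm14, Otx2, Zic2, Gbx2 and Foxd3 are transcription factors (TFs) that mark, or act in, the naive and formative states of pluripotent cells. These 9 genes were picked by symbol from the 55484 genes of the count table, 5 as naive and 4 as formative factors, and their counts were compared between mouse embryonic stem cells (mESCs, 3 libraries) and mouse embryonic fibroblasts (MEFs, 4 libraries). The question was which state of pluripotency the mESC libraries show. MEFs are in neither state, so a fold change over MEFs cannot by itself tell the naive from the formative state. No reference library of either state was included. The study gives a C57/Bl6 background for its MEFs and mESCs where it describes the ATAC-seq libraries. No treatment, time or genetic change is named for either cell type. Its RNA-seq data were already at hand in the laboratory. The medium in which the mESCs were grown is not given in the sources used here. The sort for Thy1+ MEFs and for Thy1-/Ssea1+/Epcam+ mESCs is described for the ATAC-seq libraries of the study, not for the RNA-seq libraries analyzed here. The text on RNA extraction in the labels names young and aged HSC in place of MEFs and mESCs.

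Naive pluripotency is the state of the epiblast before the embryo implants, and mESCs can hold it in culture under leukemia inhibitory factor (LIF), which acts through STAT3. On the way out of this state, cells pass through a formative phase, in which naive factors are shut down, OTX2 and ZIC2 open and occupy new enhancers together with OCT4, and de novo DNA methyltransferases rise. Cultures grown in serum are known to mix cells that stand closer to one or the other state, and some factors of both lists, such as GBX2 and FOXD3, are also at work in naive cells. A level in bulk RNA is a mean over all cells of a culture, and fewer cells that express a gene cannot be told apart from less RNA per cell.

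Totals were 11441278, 7312679, 9176467 and 6528643 counts in the MEF libraries and 8193825, 8057985 and 7462710 in the mESC libraries. Values per library are given in this order throughout. The labels do not say which culture or embryo a library came from, so p-values measure the spread between these libraries, part of which may be technical. A floor of 3 counts per library, the upper limit that a count of 0 allows, lay between 0.262 and 0.46 CPM (counts scaled to a common library total) and covers counting error only. The cell types held their markers. A list of 15 fibroblast genes summed to between 22110 and 37710 CPM in MEFs and to between 211 and 245 CPM in mESCs. Another of 10 core pluripotency genes, with Pou5f1 and Sox2 among them, summed to between 29.3 and 34.3 CPM in MEFs and to between 3672 and 4043 CPM in mESCs. The blood cell marker Ptprc held between 0.0874 and 1.85 CPM in MEFs and at most 0.124 CPM in mESCs. Of 11 blood genes, 7 were tested. Among these, Kit was called higher in mESCs (22.8% of all tested genes were), and Cd34, Runx1 and Cd53 were called lower (25.0% of all tested genes were). Of the sort markers, Thy1 held between 295 and 346 CPM in MEFs and at most 8.79 CPM in mESCs. Epcam held at most 11.4 CPM in MEFs and between 246 and 332 CPM in mESCs. Fut4, a fucosyltransferase that was not itself a sort marker, held at most 1.78 CPM in any library, which is no measure of Ssea1. Summed over the Y-linked genes Ddx3y, Eif2s3y and Kdm5d, chosen after their values were seen, libraries of one cell type stood apart, with 1.92, 0.547, 82.4 and 85.2 CPM in MEFs and 1.95, 1.99 and 40.7 CPM in mESCs.

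The 9 genes lie on chromosomes 1, 4, 5, 6, 8 and 14, and 6 of them had an upstream window in the RefSeq table of GRCm38.p6. Of the windows, 4 are shown so that the motifs of factors that act in naive cells can be seen in place. Each holds the 250 bases before a start site on the strand of the gene, with matches in capitals. The motifs searched were the octamer core TTTGCAT, the SOX motif ACAATG, the ESRRB motif AAGGTCA, the STAT3 motif TTCNNNGAA and the OTX motif TAATCC, each on both strands. The windows are Nanog at chr6:122707239-122707488 (+), Zfp42 at chr8:43307010-43307259 (-), Tfcp2l1 at chr1:118627695-118627944 (+) and one of the windows of Otx2, at chr14:48665110-48665359 (-).
Nanog: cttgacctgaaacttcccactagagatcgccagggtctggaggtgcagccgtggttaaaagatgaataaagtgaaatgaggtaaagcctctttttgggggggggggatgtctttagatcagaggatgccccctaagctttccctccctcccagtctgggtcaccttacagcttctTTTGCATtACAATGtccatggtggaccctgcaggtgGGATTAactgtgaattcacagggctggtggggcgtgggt
Zfp42: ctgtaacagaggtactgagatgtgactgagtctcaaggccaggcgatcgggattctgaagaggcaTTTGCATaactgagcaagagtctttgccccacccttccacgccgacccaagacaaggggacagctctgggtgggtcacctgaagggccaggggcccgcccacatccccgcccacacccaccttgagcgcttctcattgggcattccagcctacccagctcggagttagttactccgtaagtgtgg
Tfcp2l1: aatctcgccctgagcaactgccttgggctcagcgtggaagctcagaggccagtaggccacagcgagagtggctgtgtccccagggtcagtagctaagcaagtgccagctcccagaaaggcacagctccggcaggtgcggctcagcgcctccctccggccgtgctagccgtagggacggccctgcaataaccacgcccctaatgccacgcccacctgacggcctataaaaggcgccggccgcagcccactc
Otx2: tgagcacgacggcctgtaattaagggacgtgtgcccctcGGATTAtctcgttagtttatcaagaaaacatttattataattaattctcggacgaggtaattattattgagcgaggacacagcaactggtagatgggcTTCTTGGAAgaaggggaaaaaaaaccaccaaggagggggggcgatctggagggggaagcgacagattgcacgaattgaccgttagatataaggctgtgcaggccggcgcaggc

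The Nanog window held an octamer core at positions -75 to -69, counted back from the start site, a SOX motif at -67 to -62 and an OTX motif, read on the other strand, at -39 to -34. An octamer core together with a SOX motif was found in 0.642% of all 32851 windows of this length, the octamer core with or without it in 4.12%, the SOX motif in 10.7% and the ESRRB motif in 4.08%. The matches did not overlap each other. In the Zfp42 window, the octamer core stood at -185 to -179. The Otx2 window held an OTX motif at -211 to -206 and a STAT3 motif at -113 to -105, letters found in 6.25% and 7.02% of all windows, while the Otx2 windows at other start sites held none of these motifs. No match to the 5 motifs was found in the windows of Tfcp2l1, Gbx2 and Foxd3. Matches in letters are descriptions, and binding was not measured here.

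For all 9 factors, the lowest mESC library exceeded the highest MEF library, and the smallest fitted log2 fold change was that of Tbx3. With edgeR (quasi-likelihood test, Benjamini-Hochberg adjustment over the 16580 genes tested), 9 of 9 passed an adjusted p of 0.05, where 22.8% of all tested genes were called higher in mESCs. For 6 of the 9 (Tfcp2l1, Zfp42, Prdm14, Otx2, Gbx2 and Foxd3) the count lends no support. These 6 reached the filter of 1.24 CPM in 3 libraries only through mESCs, which favors a call without fixing it. Nanog, Tbx3 and Zic2 passed the filter in MEFs alone as well. In an exact two-sided permutation test on log2CPM, each of the 9 gave p = 0.0286, which 4 against 3 libraries cannot go below. Tested against a fold change of 2, 9 of 9 passed too, where 10.3% of all tested genes did so, and the 9 were also called higher without scaling (31.2% of genes), with DESeq2 (19.3%), without a filter beyond 1 count (11.6%) and with at least 10 counts in all libraries of one cell type (24.8%). Libraries did not overlap, with mESCs higher, in 25.9% of all tested genes. The study took more than 2 log2CPM, and more than in MEFs, as its mark of robust expression in mESCs. Applied here to mean levels with TMM scaling and a prior count of 2, both chosen for the present comparison, this was met by 9 of 9 factors and by 40.5% of all tested genes. At 3 log2CPM, 8 of 9 met it, as Prdm14 had a mean of 2.55.

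**Figure D1:**
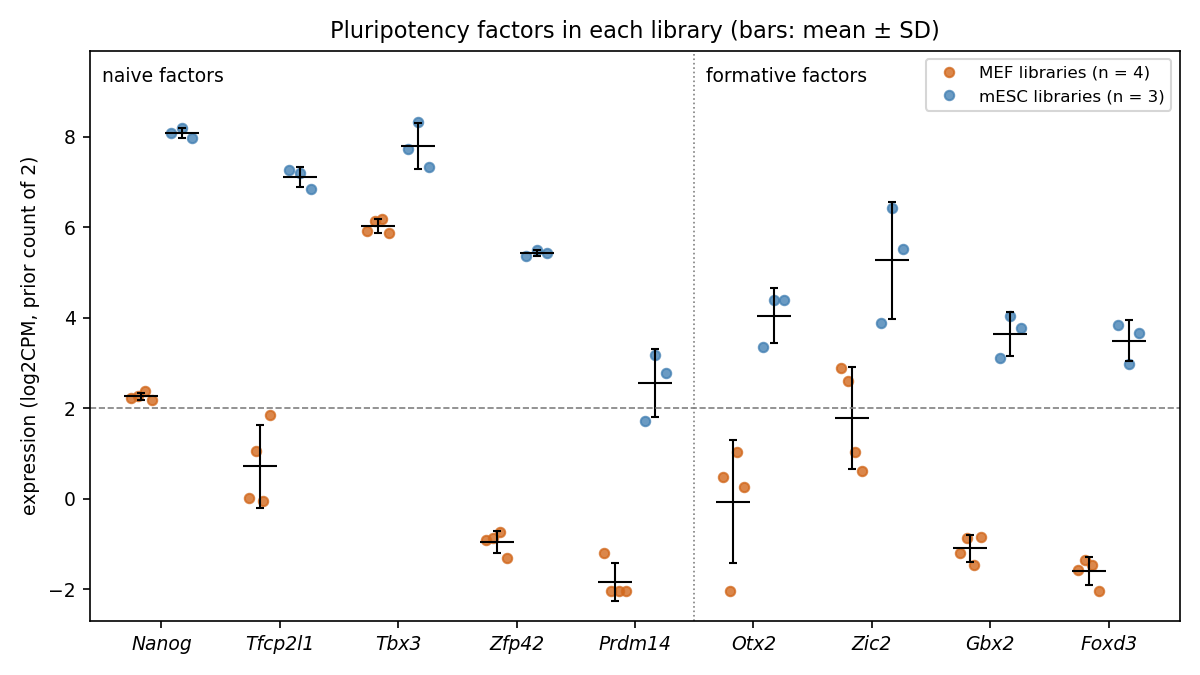
Expression of the 9 factors in log2CPM (TMM-scaled, prior count of 2; vertical axis) in 4 MEF and 3 mESC libraries, 1 point per library, with bars for the mean ± SD and a dashed line at 2 log2CPM. For every factor the mESC points sit above all MEF points, with the widest mESC spread for Zic2 and the narrowest for Zfp42.

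Among the naive factors, Nanog, the homeodomain protein whose level sets how well mESCs resist differentiation, had even values in both cell types. Its counts were 46, 30, 41 and 27 in the MEF libraries and 2519, 2562 and 2143 in the mESC libraries. These corresponded to 4.18 ± 0.197 CPM in MEFs (SD, n = 4) and 304 ± 15.6 CPM in mESCs (SD, n = 3). No library of either cell type stood apart, and the highest mESC level was 1.11 times the lowest. The log2 fold change was 5.90 (standard error 0.161, edgeR adjusted p = 5.95e-09). Nanog lies on chromosome 6 (122707489 to 122714633, plus strand, GRCm38), and 4.61% of the 50-base stretches of its transcripts are found in further annotated genes too, most of them in Nanog-ps1. Both Nanog-ps1 and Nanog-ps2 were listed with 0 counts in every library.

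Tfcp2l1, a Grainyhead-family TF that LIF and STAT3 induce, held 8, 12, 6 and 21 counts in MEFs against 1408, 1284 and 975 in mESCs. This was 1.55 ± 1.2 CPM (SD, n = 4) against 154 ± 21.1 CPM (SD, n = 3), and the log2 fold change was 6.45 (standard error 0.411, edgeR adjusted p = 6.22e-07). Its MEF values were uneven, as 21 of the 47 pooled counts came from the shallowest library. Without that library the log2 fold change was the highest of those with 1 library left out, at 7.01. Tfcp2l1 spans 118627945 to 118685168 of chromosome 1, plus strand.

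Zfp42, also called Rex1, a zinc finger protein used as a reporter of the naive state, had the largest fitted log2 fold change of the 9 genes. Counts of 3, 2, 3 and 1 in MEFs stood against 377, 397 and 360 in mESCs. All 4 MEF values were at or under the floor, and the mESC values of 46.0, 49.3 and 48.2 CPM were the least spread of the 9 factors. The log2 fold change was 7.16 (standard error 0.294, edgeR adjusted p = 3.58e-08), a value that rests on these low MEF counts. From pooled counts, the mESC level was 183 times that of MEFs, with an exact 95% interval of 96.1 to 401 for counting error. The gene lies on chromosome 8 (43295063 to 43306980, minus strand) and shares 8.52% of its 50-base sequences with Zfp42-ps1. That pseudogene was listed with 0 counts in every MEF library and with 27, 18 and 35 in the mESC libraries.

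Prdm14, a PR-domain protein that restrains FGF signaling and DNA methylation in naive cells and is needed by primordial germ cells, had few counts. MEFs held 2, 0, 0 and 0 counts, and mESCs held 28, 77 and 56. In CPM the mESC values were 3.42, 9.56 and 7.50, with the first below the other two, and all MEF libraries were under the floor. The log2 fold change was 6.33 (standard error 0.839, edgeR adjusted p = 0.00012). It rose to 8.61 without the MEF library of 11441278 counts, the only one with a count, and is no bound. Pooled counts gave a ratio of 117 with an exact 95% interval of 31.9 to 974. Prdm14 lies on chromosome 1 (13113457 to 13127163, minus strand), and none of its 50-base sequences occurred in another annotated gene.

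Tbx3, a T-box TF that sustains naive gene expression and also patterns limbs and other embryonic tissues, held the largest share of its mESC level in MEFs. Its counts were 630, 461, 604 and 363 in MEFs and 1938, 2839 and 1362 in mESCs. The MEF values lay close together at 59.9 ± 5.38 CPM (SD, n = 4), and the mESC values of 237, 352 and 183 CPM were spread by 1.93 times. The log2 fold change was 1.83 (standard error 0.222, edgeR adjusted p = 6.54e-05), with a 95% interval of 1.33 to 2.32. It was exceeded by 10.6% of all tested genes, against at most 4.03% for each of the other 8 factors. Tbx3 lies on chromosome 5 (119670669 to 119684724, plus strand), and 1.74% of its exonic bases overlap the antisense gene Tbx3os1, which had at most 33 counts in any library.

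Otx2, the homeodomain TF that drives the step from the naive to the formative state, was counted in every mESC library. Counts were 12, 0, 15 and 6 in MEFs and 92, 182 and 177 in mESCs. The mESC values were 11.2, 22.6 and 23.7 CPM, with the first below the other two, which lay close together, and the MEF values reached at most 1.63 CPM. The log2 fold change was 4.07 (standard error 0.621, edgeR adjusted p = 0.000327), with a 95% interval of 2.69 to 5.44. Otx2 spans 48657677 to 48673819 of chromosome 14, minus strand. Its overlapping neighbors Otx2os1 and Gm49154 had at most 8 counts and 1 count in any library.

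Zic2, a zinc finger TF that works at enhancers during the exit from naive pluripotency and later in the neural plate, was the most uneven of the 9 in mESCs. The mESC libraries held 133, 758 and 385 counts, or 16.2, 94.1 and 51.6 CPM. The MEF libraries held 74, 38, 15 and 8 counts, or 6.47, 5.20, 1.63 and 1.23 CPM, so that the MEF libraries fell into a higher and a lower pair. The higher pair was also the pair with low counts of the Y-linked genes, and the part of this in the spread of Zic2 was not tested. Mean levels were 3.63 ± 2.60 CPM in MEFs (SD, n = 4) and 54 ± 39 CPM in mESCs (SD, n = 3), so that the SD was large against the mean in both. The log2 fold change was 3.58 (standard error 0.646, edgeR adjusted p = 0.000989), and it was 2.88 without the mESC library of 8057985 counts (edgeR adjusted p = 0.0051). Zic2 lies on chromosome 14 (122475435 to 122479852, plus strand). The gene 2610035F20Rik, 235 bases away on the other strand, held 3, 2, 0 and 0 counts in MEFs and 2, 29 and 26 in mESCs, and so was lowest in the same mESC library.

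Gbx2, a homeodomain TF that is induced by LIF and STAT3 in mESCs and later forms the border between midbrain and hindbrain, held 2, 2, 1 and 2 counts in MEFs and 77, 142 and 114 in mESCs. The MEF values were under the floor, and the mESC values were 9.40, 17.6 and 15.3 CPM. Pooled counts gave a ratio of 69.1 with an exact 95% interval of 33.2 to 173, and the log2 fold change was 5.73 (standard error 0.481, edgeR adjusted p = 4.5e-06). Whether part of these counts came from an overlapping gene was not tested. Gbx2 (chromosome 1, 89927956 to 89931179, minus strand) has 43.5% of its exonic bases overlapped by D130058E05Rik on the other strand, and the strand setting of the counting is not stated. D130058E05Rik spans 89930234 to 89933290, so the shared bases lie where both genes start, while reads of this method pile up at 3′ ends. D130058E05Rik held 4, 0, 1 and 10 counts in MEFs and 48, 92 and 37 in mESCs (log2 fold change 3.71, edgeR adjusted p = 0.00375).

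Foxd3, a forkhead TF that primes and silences enhancers as naive cells move on and that later marks the neural crest, held 1, 1, 1 and 0 counts in MEFs. In mESCs it held 129, 67 and 105 counts, or 15.7, 8.31 and 14.1 CPM. The ratio of pooled counts was 146 with an exact 95% interval of 49.4 to 711. Its log2 fold change was 6.69 (standard error 0.566, edgeR adjusted p = 4.74e-06) and rests on MEF counts under the floor. Foxd3 spans 99656299 to 99658622 of chromosome 4, plus strand, with a single exon.

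**Figure D2:**
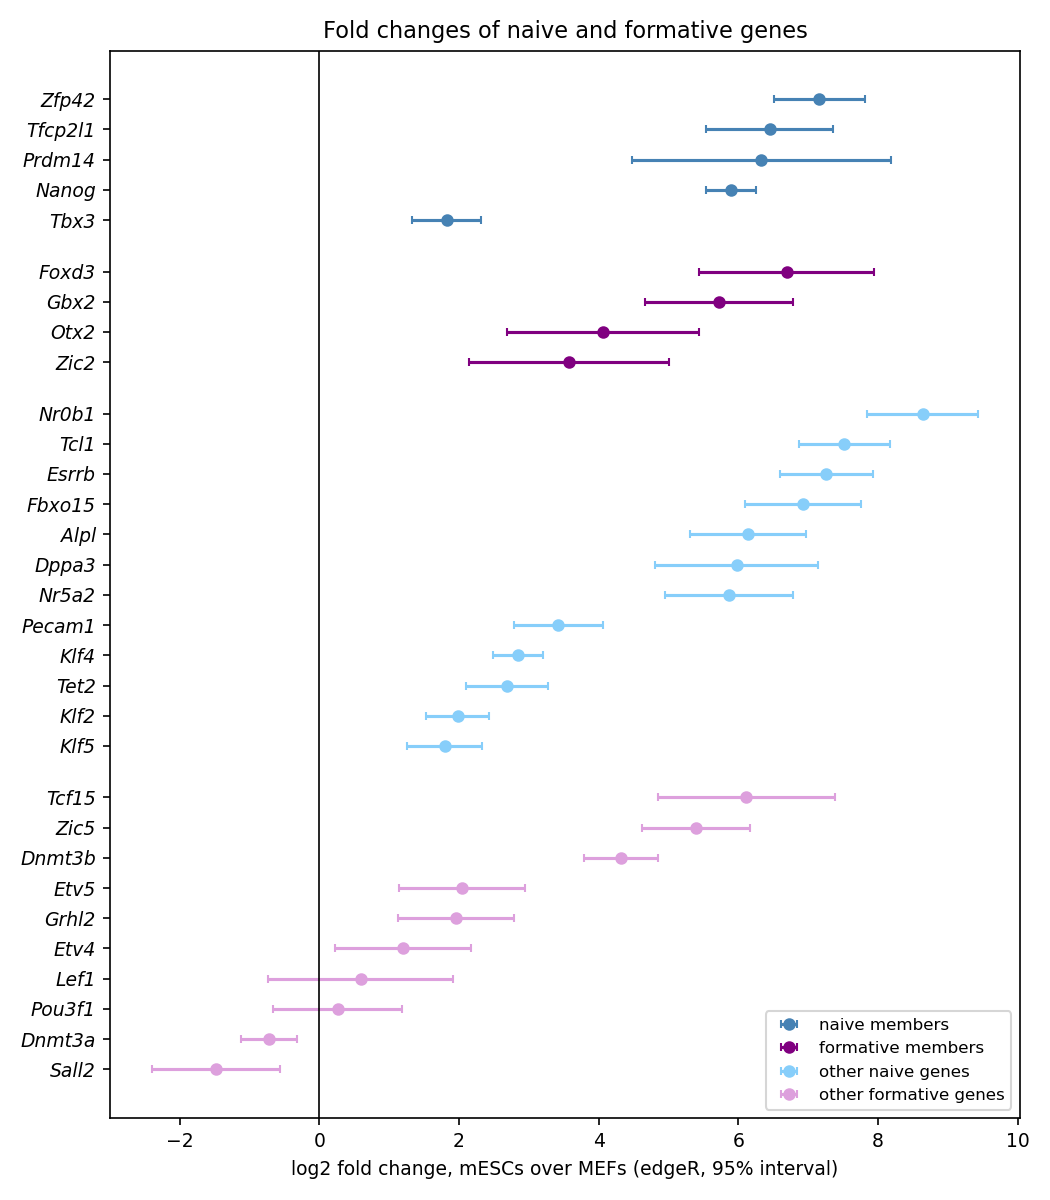
Log2 fold changes of mESCs over MEFs (horizontal axis) with 95% intervals from edgeR for the 5 naive and 4 formative members and for the tested genes of 2 further lists of naive and formative genes. All naive genes lie to the right of 0, with Tbx3 and Klf5 nearest to it, while the other formative genes run from Sall2 at -1.48 to Tcf15 at 6.11.

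Between the mESC libraries, Nanog and Zfp42 were steady while Zic2 and Prdm14 were not. The SD of log2CPM over the 3 libraries was larger than that of 5.86% of tested genes for Zfp42 and of 10.9% for Nanog, but larger than that of 86.7% for Prdm14 and of 97.3% for Zic2. The library of 8193825 counts was the lowest for 5 of the 9 factors, where it was the lowest for 31.6% of all tested genes. For Zic2, it held 0.173 times the level of the library of 8057985 counts (exact 95% interval 0.142 to 0.208) and 0.315 times that of the library of 7462710 counts (0.256 to 0.384). For Prdm14 the ratios were 0.358 (0.223 to 0.558) and 0.455 (0.279 to 0.729). For Otx2 they were 0.497 (0.383 to 0.642) and 0.473 (0.364 to 0.612), and for Gbx2 0.533 (0.399 to 0.709) and 0.615 (0.455 to 0.83). In Prdm14, Otx2 and Gbx2, the interval for the other two mESC libraries included 1. These intervals cover counting error only.

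The low values of that library were not shared by every factor. Foxd3 held 1.89 times the level of the library of 8057985 counts there (exact 95% interval 1.40 to 2.58) and 1.12 times that of the library of 7462710 counts (0.858 to 1.46), an interval that includes 1. For Tfcp2l1 the ratios were 1.08, with an interval that also includes 1, and 1.31 (1.21 to 1.43). For Zfp42 the intervals of all 3 pairs of mESC libraries included 1. The library of 8057985 counts held the highest level of 6 of the 9 factors, where it did so for 33.6% of all tested genes. The mESC library that stood apart in Y-linked genes was that of 7462710 counts, a different one, and it was the lowest for Nanog, Tfcp2l1 and Tbx3. The part of such differences between libraries in the spread of the factors was not tested.

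**Figure D3:**
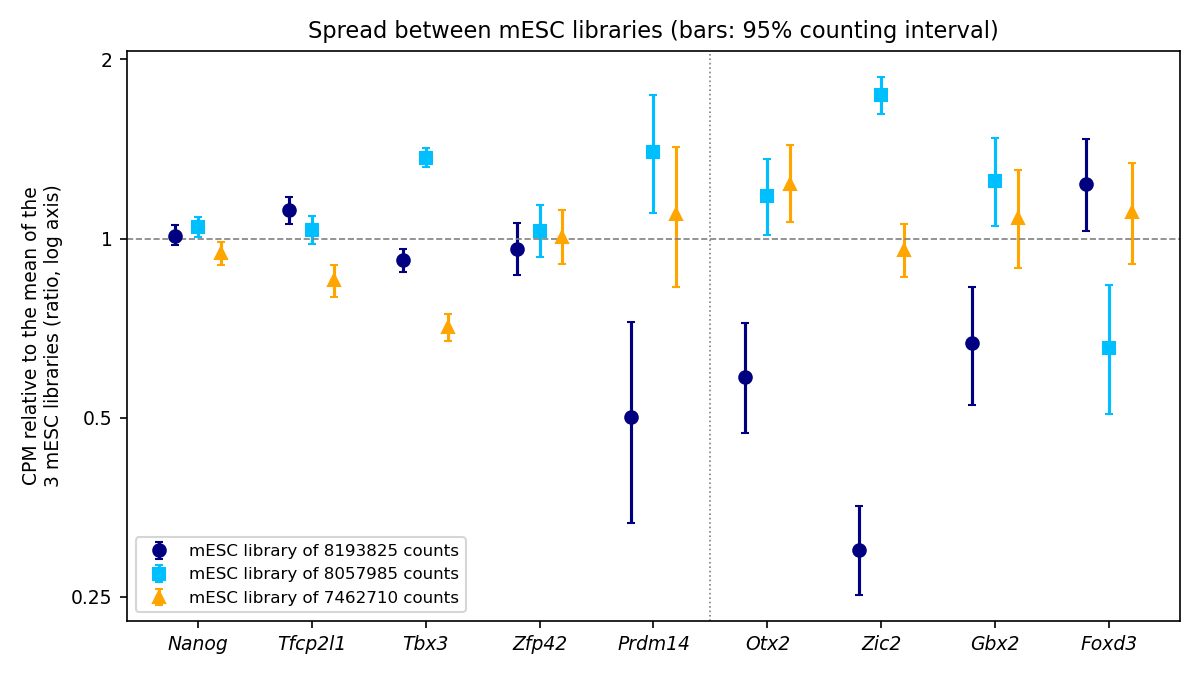
CPM of each factor relative to the mean of the 3 mESC libraries (ratio, log axis), 1 symbol per library, with exact 95% counting intervals. The library of 8193825 counts lies farthest below the mean for Zic2 and is also lowest for Prdm14, Otx2 and Gbx2, but is highest for Foxd3.

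Counts of the factors in MEFs were set beside those of core pluripotency genes measured in the same way. As a share of the pooled mESC level, the pooled MEF libraries held 1.37% of Nanog (exact 95% interval 1.16% to 1.62%), 0.882% of Tfcp2l1 (0.647% to 1.18%) and 0.546% of Zfp42 (0.249% to 1.04%). The shares were 0.855% for Prdm14 (0.103% to 3.14%), 0.686% for Foxd3 (0.141% to 2.02%) and 1.45% for Gbx2 (0.577% to 3.01%). The 10 core pluripotency genes ran from 0.324% for Dppa4 to 2.26% for Zfp296, with a median of 0.62%. Otx2 with 5.04% (3.42% to 7.18%), Zic2 with 7.28% (6.05% to 8.70%) and Tbx3 with 23.1% (21.9% to 24.3%) lay above that range. All of these intervals come from pooled counts and leave out the spread between libraries. For Zic2, that spread ran from 16.2 to 94.1 CPM in mESCs and from 1.23 to 6.47 CPM in MEFs. In the other direction, the mESC libraries held between 0.212% and 21.2% of the MEF level of the fibroblast genes, with a median of 1.05%. The part of RNA from the other cell type in these low counts was not tested.

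**Figure D4:**
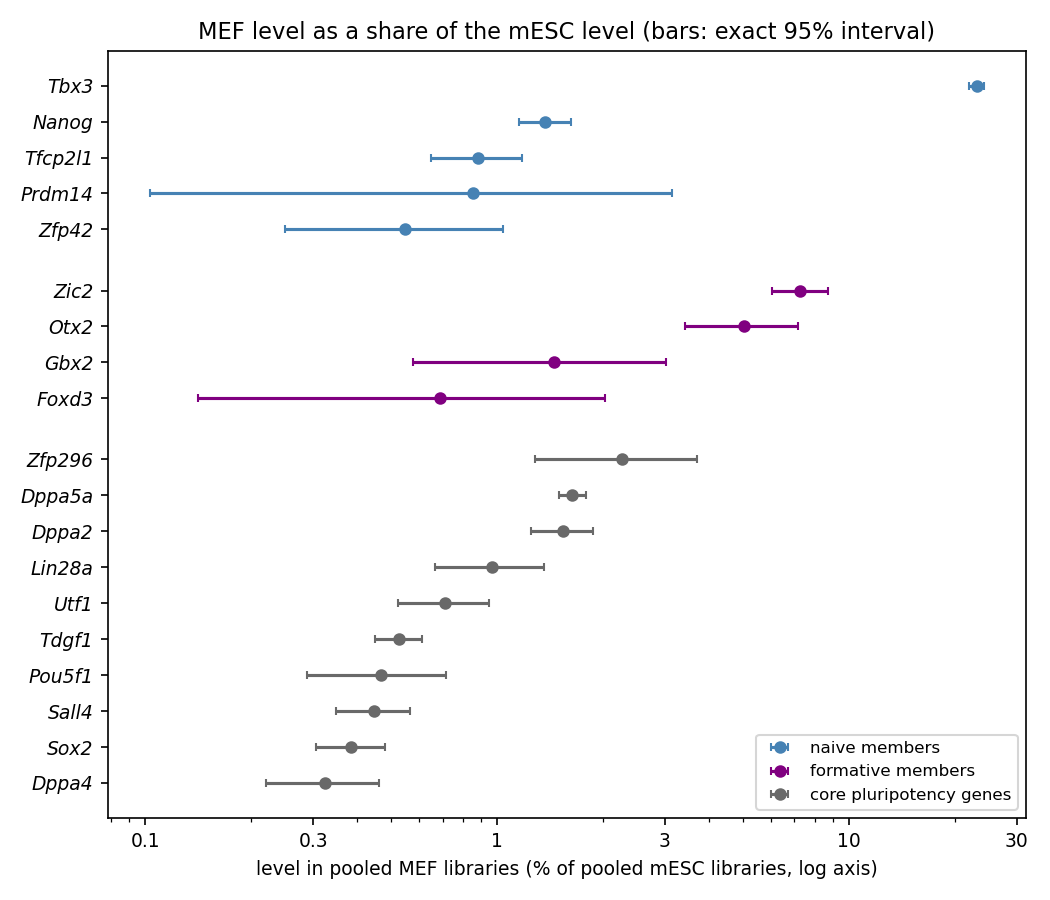
Level in the pooled MEF libraries as a percentage of that in the pooled mESC libraries (log axis) for the 9 factors and 10 core pluripotency genes, with exact 95% counting intervals. Only Tbx3, Zic2 and Otx2 lie above the range of the core genes, which ends at 2.26% for Zfp296.

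The other genes of the naive state were higher in mESCs throughout. Of a list of 12, all were tested and 12 were called higher (22.8% of all tested genes were) and 0 lower. The median log2 fold change was 5.92 beside 0.04 over all tested genes. Of the 12, 7 passed the filter only through mESCs, with Esrrb, Nr0b1, Tcl1 and Dppa3 among them. Their calls lend no support, and neither does the median, which includes them. The orphan receptors Esrrb and Nr0b1 had log2 fold changes of 7.26 and 8.64, and Tcl1, a cofactor of the kinase AKT, had 7.52. For Nr0b1, MEFs held 1, 5, 2 and 2 counts, of which 1 value was above the floor of 3 counts, and the log2 fold change was 9.28 without that library, the one of 7312679 counts. Dppa3, a maternal factor that guards DNA methylation, held between 33.3 and 80.3 CPM in mESCs against at most 1.99 CPM in MEFs. The Krüppel-like factors rose by less, with log2 fold changes of 2.85 for Klf4, 1.98 for Klf2 and 1.79 for Klf5 (edgeR adjusted p = 0.000142 for Klf5), and each of them held at least 66.0 CPM in every MEF library. Tet2, which oxidizes methylated cytosine, rose by 2.69 on the log2 scale.

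The other formative genes did not move together. Of a list of 12, 10 were tested, and the median log2 fold change was 1.58. Of the 10, 6 were called higher (22.8% of all tested genes were), 2 lower (25.0% of all tested genes were) and 2 not. Tcf15 and Zic5 were among those called higher and passed the filter only through mESCs, so their calls lend no support, and the median includes them. The mesodermal TF Tcf15, which is transiently active as cells leave the naive state, held between 46.7 and 59.9 CPM in mESCs and at most 1.09 CPM in MEFs (log2 fold change 6.11, edgeR adjusted p = 1.01e-05). Zic5, the neighbor of Zic2, rose by 5.39 on the log2 scale and the de novo methyltransferase Dnmt3b by 4.32 (edgeR adjusted p = 2.57e-07). Smaller log2 fold changes were seen for the ETS factors Etv5 (2.05) and Etv4 (1.2) and for the epithelial TF Grhl2 (1.96). That of Etv5 was 1.35 without the mESC library of 8057985 counts (edgeR adjusted p = 0.00709). The call of Etv4 was lost without the MEF library of 6528643 counts or without any one of the mESC libraries, with adjusted p between 0.0659 and 0.106 (edgeR). Lower in mESCs were Sall2 (log2 fold change -1.48, edgeR adjusted p = 0.0131) and Dnmt3a (-0.72, edgeR adjusted p = 0.00688). Dnmt3a was no longer called without scaling beyond library totals, with a log2 fold change of -0.44 (edgeR adjusted p = 0.0606), and without that scaling log2 fold changes moved up by 0.28.

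Other formative markers had few counts in mESCs or did not pass the test. Fgf5, the growth factor most often used to mark the post-implantation epiblast, had 7, 3 and 5 counts in mESCs and 6, 0, 2 and 8 in MEFs, and was too low to be tested. Sox3, a neural TF, had 6, 18 and 0 counts in mESCs and 0, 0, 0 and 2 in MEFs, and was not tested either. Pou3f1, or Oct6, held 343, 260 and 413 counts in mESCs, between 32.3 and 55.3 CPM, with a log2 fold change of 0.26 over MEFs (95% interval -0.66 to 1.19, edgeR adjusted p = 0.64). It passed the test without the MEF library of 11441278 counts, which held 56.7 CPM (log2 fold change 0.82, edgeR adjusted p = 0.0451). For Lef1, a TF of the WNT pathway, the log2 fold change was 0.59 (95% interval -0.73 to 1.92, edgeR adjusted p = 0.456).

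Within the mESC libraries, these genes did not share one order with Zic2 and Otx2. Lef1 was low in the library of 8193825 counts too, with 16 counts against 96 and 102. Zic5 and Etv5 were highest in the library of 8057985 counts, with 391, 669 and 400 counts and 343, 815 and 236 counts. Dnmt3b, by contrast, held 603, 563 and 718 counts, and Tcf15 held 491, 376 and 357.

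Genes that mark the germ layers held between 0 and 240 counts in single mESC libraries. Of 14 genes, 6 were tested, with 2 higher in mESCs (22.8% of all tested genes were) and 4 not called. Eomes, a T-box TF of primitive streak and trophoblast, held between 7.32 and 15.8 CPM in mESCs (log2 fold change 2.08, edgeR adjusted p = 0.00237), and Sox1, of the neural plate, between 3.48 and 6.08 CPM (log2 fold change 3.33, edgeR adjusted p = 0.00508). Sox1 passed the filter only through mESCs, so its call lends no support. The endoderm TF Gata6, which was not called, held 240, 136 and 75 counts in mESCs against 270, 169, 291 and 213 in MEFs (log2 fold change -0.84, edgeR adjusted p = 0.0554). Pax6, of the neural tube and eye, was not called either and held 185, 149 and 75 counts in mESCs and 87, 59, 85 and 53 in MEFs (log2 fold change 0.76, edgeR adjusted p = 0.0609). The streak marker T had 1, 1 and 0 counts. The endoderm TFs Sox17 and Foxa2 were listed with 0 counts in every MEF library and held 51, 41 and 9 counts and 21, 18 and 4 counts in mESCs, which was below the filter of the test. Of 6 germ cell genes, to which Prdm14 is linked by function, 3 were higher in mESCs, beside 22.8% of all tested genes, and 3 were not called. Dazl, 1 of 3 of these genes that passed the filter only through mESCs, rose by 6.68 on the log2 scale, Tfap2c by 4.03 and Ddx4 by 2.54, while Prdm1, a partner of Prdm14 in germ cells, had a log2 fold change of 0.96 (edgeR adjusted p = 0.0903).

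Relatives of the 9 factors were called in both directions. Of 24 family members, 18 were tested, with 1 higher in mESCs (Zic5), 6 lower and 11 not called and a median log2 fold change of -0.51, where 22.8% of all tested genes were called higher and 25.0% lower. Zic5 passed the filter only through mESCs, so its call lends no support. In the ZIC family, Zic1 went the other way, from between 7.35 and 25.6 CPM in MEFs to at most 0.61 CPM in mESCs (log2 fold change -5.29, edgeR adjusted p = 3.37e-05). Among T-box genes other than Tbx3, Tbx15, Tbx5 and Tbx2 were lower, with log2 fold changes of -6.60, -4.54 and -3.97. Foxd1, named after its value was seen, had a log2 fold change of -3.96 where Foxd3 had 6.69. Otx1, the paralog of Otx2, and Gbx1, the paralog of Gbx2, had too few counts to be tested.

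Of 17 genes that control the factors or work with them, 8 were higher in mESCs, 6 lower and 3 not called, with a median log2 fold change of 0.27. Over all tested genes, 22.8% were called higher and 25.0% lower. All of them passed the filter in MEFs alone. Jarid2, a subunit of Polycomb repressive complex 2, rose by 3.34 on the log2 scale, Socs3, a target and brake of STAT3, by 3.27 (edgeR adjusted p = 5.52e-06), Rbpj, the TF of the Notch pathway, by 2.19, and Zfp281 by 1.31. The receptor chain Il6st, or gp130, which LIF signals through, had a log2 fold change of -2.60, with between 199 and 373 CPM in MEFs and between 50.9 and 72.0 CPM in mESCs. The LIF receptor chain Lifr, named after its value was seen, was higher in mESCs, with a log2 fold change of 0.95 (edgeR adjusted p = 0.000398). Stat3 itself had a log2 fold change of -1.36, and the FGF receptors Fgfr1 and Fgfr2 had -1.75 and -1.52.

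The genes whose pattern over the 7 libraries was most like each factor were sought by the root mean square distance of log2CPM after centering each gene. Klf5 was nearest to Tbx3, at a distance of 0.080 log2 units, with 80.6, 91.8, 107 and 79.3 CPM in MEFs and 364, 522 and 246 CPM in mESCs. As for Tbx3, the highest mESC library was that of 8057985 counts and the lowest that of 7462710 counts. The pluripotency gene Dppa5a was nearest to Nanog, at 0.116. Farther off were Rnf17 for Tfcp2l1 (0.344), Gm2381 for Otx2 (0.44) and Gm25636 for Zic2 (0.491). For Zfp42, Prdm14, Gbx2 and Foxd3, the nearest were Epp13, Mael, 1500009C09Rik and Fmr1nb, at 0.186 to 0.243, distances that partly rest on the prior count since MEF counts were at or under the floor.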

How the data were processed

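RNA from 4 MEF and 3 mESC samples was sequenced with a 3′-biased, poly(A)-primed method that adds molecular identifiers. The authors demultiplexed and trimmed the reads and aligned them to mm10 with STAR (version 2.4.2a in the submitters' processing notes). Reads with the same identifier were collapsed by Je, and featureCounts was used to assign reads with a unique position to exons. The deposited values are whole-number counts per gene that the authors did not normalize. The annotation release and the strand setting are not given in the sources used here. Because reads pile up at 3′ ends and are not scaled by length, levels were not compared between genes.

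Each column name shows the cell type, an unexplained letter and a number that may or may not belong to the sample, so a library is identified by its total, which ran from 6528643 to 11441278 counts. Columns not used numbered 0. Symbols in the form of dates (26 rows, 0.249% of counts) entered the totals only. Pairs of libraries within a cell type differed by 17.6 to 35.3 units of chi-square for each degree of freedom, so none was a copy of another.

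All 55484 genes entered edgeR 4.0.16 (limma 3.58.1, R 4.3.3). After filterByExpr, 16580 genes were tested with TMM scaling and the quasi-likelihood test, with no covariate, and calls were made at an adjusted p of 0.05 (Benjamini-Hochberg). Standard errors were derived from the log2 fold change and F statistic. A prior count of 2 was used for log2CPM, and library totals for CPM. Single factors were also compared by exact two-sided permutation. Ratios of pooled counts have exact (Clopper-Pearson) 95% intervals for counting error, which leave out the spread between libraries. The scripts were tested on simulated data for the comparison of mESCs with MEFs, with a log2 fold change of 2 in 200 of 16580 genes. There, edgeR found 141 and made 9 false calls, DESeq2 1.42.0 found 160 and made 41, and edgeR made 0 calls when nothing was changed.

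The alternatives were no scaling, the size factors of DESeq2 within edgeR, DESeq2 itself (Wald test), a filter of 1 count in all, a filter of 10 counts in all libraries of either cell type, a test against a fold change of 2, a prior count of 0.5, log2(CPM + 1), levels without TMM, cuts at 1 and at 3 log2CPM, and the removal of single libraries. The 9 factors and all gene lists (other naive, other formative, core pluripotency, germ layer, germ cell, relatives, regulators, fibroblast, blood and sort genes) were chosen with earlier results of these data known. Of the genes first listed, 2 are not reported here and enter no count, sum or median of a list. The genes named are the 9 factors, members of lists shorter than 15 genes, the 4 largest and 4 smallest log2 fold changes of longer lists, the 2 genes nearest in pattern to each factor, and their pseudogenes and overlapping genes. Coordinates are from GENCODE M21 (GRCm38), shared sequence was counted over stretches of 50 bases of annotated transcripts in both orientations, and upstream windows are from RefSeq.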

Additional observations from a re-analysis of the deposited data

Results flagged for a closer look

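Of 33 genes of the member, naive and formative lists, 3 had a MEF library that stood apart from the other 3 by Dixon's ratio, where chance gives 1.65. Prdm14 had a ratio of 1.0, from 2 counts in the MEF library of 11441278 counts and 0 in each of the others. Sox3 had a ratio of 1.0 too, from 2 counts in the MEF library of 6528643 counts and 0 in the rest, and both values lie under the floor of 3 counts. For Tet2, the ratio was 0.964, as the MEF library of 7312679 counts held 15 CPM where the others held between 27.8 and 28.8 CPM.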

How the results depend on the processing

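No paired analysis was possible because columns could be tied to a cell type but not to a numbered sample. The 9 factors were called higher in mESCs in 54 of 54 fits with another setting and in 63 of 63 fits without 1 library each. Of the 9, 6 passed the main filter only through mESCs, so these counts of fits lend them no support. Over all genes, fits without 1 library called between 3234 and 3619 higher in mESCs. With a library left out, the log2 fold change ran from 1.5 to 2.02 for Tbx3, from 2.88 to 4.04 for Zic2 and from 5.97 to 8.61 for Prdm14. The value of 8.61 came without the MEF library of 11441278 counts, since the MEF libraries then all held 0 counts. Over all genes, the stricter test against a fold change of 2 called 3991, with 1714 of them higher and 2277 lower in mESCs. Of the other formative genes, 1 was called lower without scaling beyond library totals and 0 in the test against a fold change of 2, which also lost the call of Etv4. Depth limits the MEF levels of Zfp42, Prdm14, Gbx2 and Foxd3, which were at or under the floor in all 4 MEF libraries, so that their mean log2CPM depends on the prior count.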
